A study of Mus musculus with 8 samples.

Results

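Klrd1, Klrc1, Klrc2, Klrk1, Klrg1 and Ncr1 encode the receptors CD94, NKG2A, NKG2C, NKG2D, KLRG1 and NKp46, through which natural killer (NK) cells and some T cells read the surface of other cells. These 6 genes were chosen by name, with earlier results of these data known. They made up 6 of the 693 genes with a deposited level, and all 6 had one in every tumour. One group was 4 tumours injected with CXCL10, a chemokine whose receptor CXCR3 is carried by activated T cells and by NK cells, given into the tumour at 10 µg in 50 µl of phosphate-buffered saline on days 3, 6 and 9 of tumour growth. The other group, vehicle, was 4 tumours injected with the same volume of the saline alone. RNA came from the whole tumour in all 8. The tumours were buccal grafts of the cell line 4MOSC1, which derives from oral squamous carcinoma of the mouse, and the hosts were female C57BL/6N mice of 4 to 6 weeks with their own immune cells. Treatment began at a mean tumour volume of 10 to 20 mm3, and the sample titles give day 10 as the day of collection. A second label runs from day 14 to 17 over the CXCL10 tumours and from day 10 to 13 over the vehicle tumours, so that if it were right day and treatment could not be told apart. The labels do not say that each tumour came from its own mouse, and p-values measure only the spread between these tumours.

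CD94 has almost no signalling tail of its own and reaches the cell surface joined to an NKG2 chain. With NKG2A it forms an inhibitory receptor, and with NKG2C an activating one. In the mouse both bind Qa-1, a class I-like molecule encoded by H2-T23. NKG2D is an unrelated activating receptor despite its name: it works as a homodimer with its adaptor DAP10 (Hcst) and binds stress-induced ligands such as MULT1 (Ulbp1), H60 and the RAE-1 proteins. KLRG1 is an inhibitory receptor of cadherins that marks late effector T cells and mature NK cells, and NKp46 is an activating receptor used to define NK cells, which signals through adaptor chains with activation motifs. CD94, NKG2A, NKG2D and KLRG1 appear on activated CD8 T cells as well as on NK cells, whereas NKp46 is largely kept to NK cells and related innate lymphocytes.

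In the RefSeq gene order of the mouse, Klrd1, Klrk1, Klrc3, Klrc2 and Klrc1 are consecutive protein-coding genes on chromosome 6. Klrg1 lies elsewhere on chromosome 6, and Ncr1 lies on chromosome 7. RefSeq promoter windows were given for 4 of the 6 genes, and the 250 bases before the most upstream listed start are printed here because neighbouring genes with similar profiles (Klrk1, Klrc1) can there be set beside a gene with another profile (Ncr1). Positions on GRCm38.p6 are chr6:129623865-129624114 for Klrk1, chr6:129678974-129679223 for Klrc1 and chr6:129660597-129660846 for Klrc2, all on the minus strand, and chr7:4337465-4337714 on the plus strand for Ncr1. Each sequence runs 5′ to 3′ on the strand of its gene, and capitals mark the RUNX core TGTGGT or its reverse complement ACCACA, and the T-box core GTGTGA or TCACAC.
Klrk1: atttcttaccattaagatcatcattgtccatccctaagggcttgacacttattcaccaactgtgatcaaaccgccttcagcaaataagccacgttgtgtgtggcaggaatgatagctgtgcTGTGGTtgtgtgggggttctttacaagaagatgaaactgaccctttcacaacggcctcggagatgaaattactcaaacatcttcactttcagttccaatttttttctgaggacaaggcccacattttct
Klrc1: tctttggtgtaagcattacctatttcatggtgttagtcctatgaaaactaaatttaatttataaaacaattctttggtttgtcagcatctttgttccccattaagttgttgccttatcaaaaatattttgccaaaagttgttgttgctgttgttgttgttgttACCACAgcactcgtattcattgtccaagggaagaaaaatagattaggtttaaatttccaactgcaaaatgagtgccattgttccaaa
Klrc2: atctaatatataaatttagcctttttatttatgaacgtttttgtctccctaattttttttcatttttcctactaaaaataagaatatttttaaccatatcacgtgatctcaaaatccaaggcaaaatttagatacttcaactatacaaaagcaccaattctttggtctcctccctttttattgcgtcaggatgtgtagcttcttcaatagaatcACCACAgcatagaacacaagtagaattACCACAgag
Ncr1: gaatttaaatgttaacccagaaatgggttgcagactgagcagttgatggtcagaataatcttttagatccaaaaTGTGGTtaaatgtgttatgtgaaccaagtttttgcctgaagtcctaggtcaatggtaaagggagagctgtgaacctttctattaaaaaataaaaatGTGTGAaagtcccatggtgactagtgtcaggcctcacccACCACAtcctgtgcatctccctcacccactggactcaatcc
All 4 windows held at least 1 RUNX core, with 2 each in Klrc2 and Ncr1, against 14.0% of 32807 promoter windows of the same length with at least 1. A T-box core was found in the Ncr1 window, against 12.3% of all windows. The STAT motif TTCNNNGAA, found in 7.0% of all windows, was in 0 of the 4. RUNX factors and the T-box factors T-bet and Eomes act in NK cells and effector T cells, but the motifs were picked after the sequences had been seen, and a match is a run of letters and not a measured binding site.

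Levels are log2 normalized counts of 1 probe per gene, on the authors' scaling. Whole counts recovered from them summed to between 1028938 and 1167694 per CXCL10 tumour and between 973697 and 1021358 per vehicle tumour. Over these 4 tumours a group, limma called 2 of the 693 genes at an adjusted p under 0.05, or 0.289%, and neither was one of the 6. At an unadjusted p under 0.05 with a higher level after CXCL10 stood 4 of the 6 (Klrd1, Klrk1, Klrc1 and Klrc2), against 15.0% of all genes. Since the 6 genes were chosen with earlier results of these data known, this comparison is a description and not a test. All 6 had a higher mean after CXCL10, as did 482 of the 693 genes. The median log2 difference was 0.46 over the 6 genes and 0.13 over all genes. In whole tumours, more cells of a type and more RNA per cell cannot be told apart. In 0 of the 6 did all 4 CXCL10 tumours lie above all 4 vehicle tumours, against 7.79% of all genes.

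Klrd1, the CD94 chain, had the largest difference of the 6. Its log2 level was 9.65, 10.15, 10.13 and 10.26 in CXCL10 tumours 1 to 4, against 9.70, 9.25, 9.33 and 9.42 in vehicle tumours 1 to 4. CXCL10 tumours 2, 3 and 4 lay above every vehicle tumour, while CXCL10 tumour 1 lay just below vehicle tumour 1. The means were 10.05 ± 0.27 after CXCL10 and 9.42 ± 0.20 in vehicle (SD, n = 4 each), a 1.54-fold difference. On the log2 scale this was 0.63 (95% interval 0.27 to 0.99), with a limma unadjusted p of 0.00310 and an adjusted p of 0.143 over the 693 genes. Klrd1 stood 15th of the 693 genes by p and 24th by the size of a higher difference. A two-sided exact permutation test over the 8 tumours gave p = 0.0571, where the smallest value such a test allows is 0.0286.

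Klrc1, the inhibitory NKG2A chain that pairs with CD94, separated the tumours much as Klrd1 did. It stood at 7.90, 8.40, 8.44 and 8.53 in CXCL10 tumours 1 to 4, against 8.07, 7.62, 7.69 and 7.85 in vehicle tumours 1 to 4. Again CXCL10 tumour 1 lay below vehicle tumour 1 and the other 3 CXCL10 tumours lay above every vehicle tumour. The difference was 1.42-fold, or 0.51 on the log2 scale (95% interval 0.14 to 0.88, limma adjusted p = 0.181). The exact permutation p was 0.0571.

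Klrc2, the activating NKG2C chain, overlapped more between the groups. CXCL10 tumours 1 to 4 stood at 7.75, 8.27, 8.17 and 7.93, against 7.71, 7.46, 7.94 and 7.35 in vehicle tumours 1 to 4. Only CXCL10 tumours 2 and 3 lay above all vehicle tumours, and vehicle tumour 3 lay slightly above CXCL10 tumour 4. The difference was 0.41 on the log2 scale (95% interval 0.04 to 0.79, limma adjusted p = 0.223), with an exact permutation p of 0.0857. Klrc1, Klrc2 and the unmeasured Klrc3 have closely related sequences, RefSeq lists Klrc2 also as a synonym of Klrc3, and how far the probes share signal was not tested.

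Klrk1, the activating receptor NKG2D, had the second largest difference. Its log2 level was 9.17, 9.79, 9.63 and 9.65 in CXCL10 tumours 1 to 4, against 9.28, 9.09, 8.85 and 8.81 in vehicle tumours 1 to 4. CXCL10 tumours 2, 3 and 4 exceeded every vehicle tumour, and CXCL10 tumour 1 lay between vehicle tumours 2 and 1. The difference was 1.47-fold, or 0.55 on the log2 scale (95% interval 0.18 to 0.92, limma adjusted p = 0.167, exact permutation p = 0.0571).

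The other receptors showed smaller differences. Klrg1 had the lowest counts, 75 to 100 per CXCL10 tumour and 59 to 81 per vehicle tumour. Its log2 level was 6.37, 6.75, 6.14 and 6.55 in CXCL10 tumours 1 to 4, against 6.27, 6.01, 6.11 and 6.38 in vehicle tumours 1 to 4. CXCL10 tumour 3, which lay above all vehicle tumours for Klrd1 and Klrc1, was the lowest of its group for Klrg1, and CXCL10 tumours 2 and 4 lay above all vehicle tumours. The difference was 0.26 (95% interval -0.08 to 0.60, limma adjusted p = 0.378), or 0.16 without CXCL10 tumour 2. Counting error alone would give Klrg1 a log2 SD of 0.15 in CXCL10 and 0.17 in vehicle tumours, against measured SDs of 0.26 and 0.16. For Klrd1 the same figures were 0.044 and 0.056 from counting, against measured SDs of 0.27 and 0.20, so its spread between tumours was several times its counting error.

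Ncr1, the NK cell receptor NKp46, had nearly equal means of 8.13 ± 0.20 after CXCL10 and 8.02 ± 0.34 in vehicle (SD, n = 4 each). CXCL10 tumours 1 to 4 stood at 8.07, 8.43, 7.98 and 8.06, against 8.37, 7.68, 7.77 and 8.24 in vehicle tumours 1 to 4. Vehicle tumours 1 and 4 lay above CXCL10 tumours 1, 3 and 4, and vehicle tumours 2 and 3 lay below all CXCL10 tumours. The difference was 0.12 (95% interval -0.29 to 0.52, limma adjusted p = 0.737), an interval whose upper end reaches the difference of Klrc1. It was 0.018 without CXCL10 tumour 2, 0.0050 without vehicle tumour 2, 0.034 without vehicle tumour 3, 0.23 without vehicle tumour 1 and 0.19 without vehicle tumour 4.

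**Figure D1:**
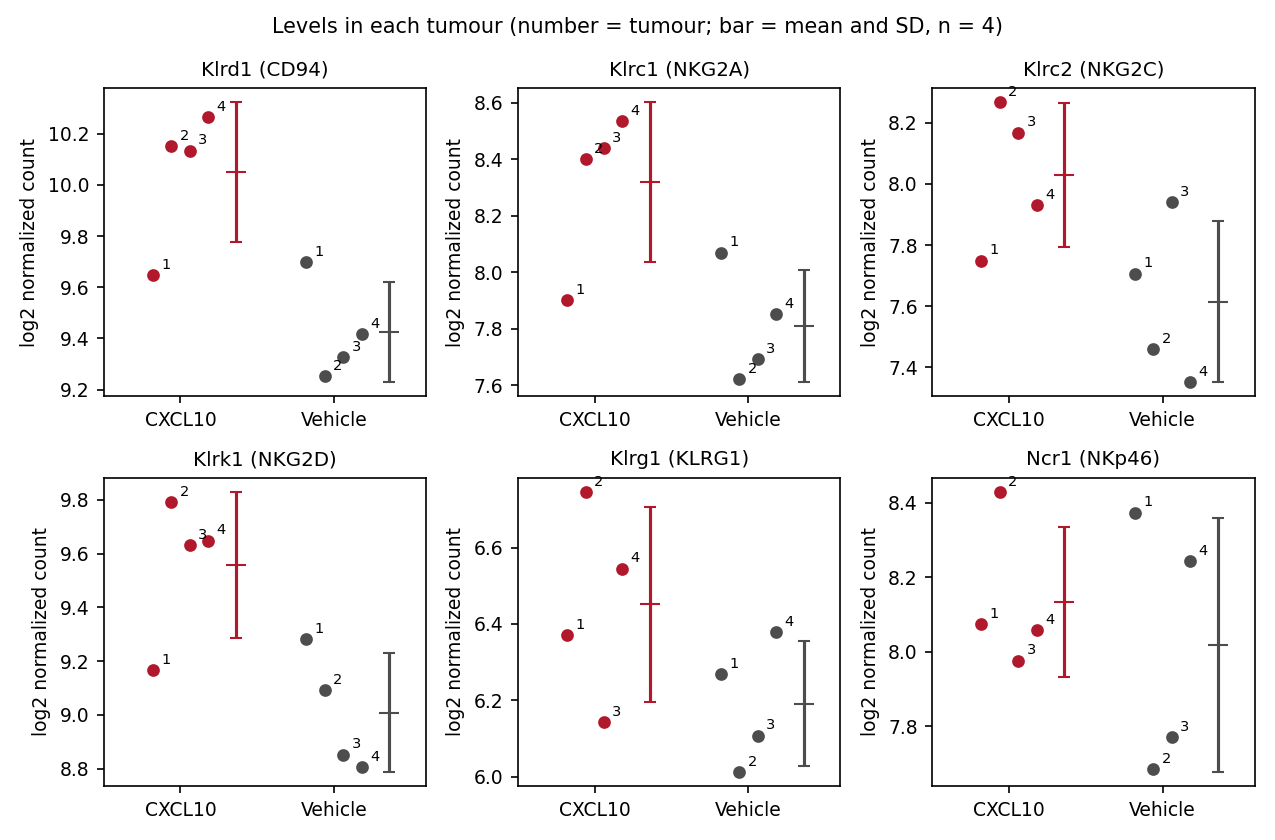
Log2 normalized count of each of the 6 genes (vertical axes, each with its own range) in the 4 CXCL10 (left) and 4 vehicle tumours (right), with the tumour number beside each point and the mean and SD of the group as a bar. For Klrd1, Klrc1 and Klrk1 CXCL10 tumours 2, 3 and 4 lie above all vehicle tumours and CXCL10 tumour 1 lies among them, while for Ncr1 the groups are interleaved.

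**Figure D2:**
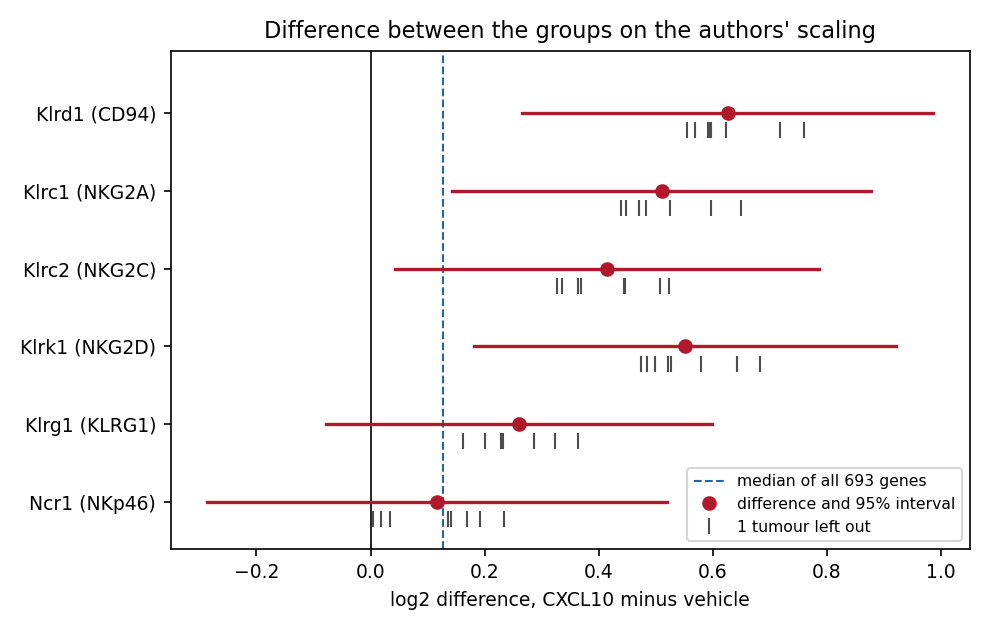
Log2 difference, CXCL10 minus vehicle (horizontal axis), with its 95% interval from limma for each gene, and below it the 8 differences obtained with 1 tumour left out (grey ticks). The intervals of Klrd1, Klrk1, Klrc1 and Klrc2 lie above 0, those of Klrg1 and Ncr1 span 0, and the dashed line marks the median of all 693 genes at 0.13.

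The tumours themselves ranked differently for different receptors. CXCL10 tumour 2 exceeded all vehicle tumours in 6 of the 6 genes, CXCL10 tumours 3 and 4 in 4 each, and CXCL10 tumour 1 in 0. CXCL10 tumour 1 also had the lowest level of its group for Ptprc, the leucocyte marker CD45, at 11.04 against 11.39 to 11.62 in the other CXCL10 tumours. Vehicle tumour 1 likewise had the lowest Ptprc of its group, at 10.82 against 10.97 to 11.37 in the other vehicle tumours. Without CXCL10 tumour 1 the differences were 0.76 for Klrd1, 0.68 for Klrk1 and 0.65 for Klrc1, with limma adjusted p of 0.0732, 0.0791 and 0.0791, so that they did not pass in that setting either. Vehicle tumour 1 was the highest of its group for Klrd1, Klrc1, Klrk1 and Ncr1. Vehicle tumour 3 was the highest for Klrc2 and vehicle tumour 4 for Klrg1. Although low in Ptprc, vehicle tumour 1 was also the highest of its group for the mean of Cd3d, Cd3e and Cd3g (8.73). The same held for Cd8a (7.72) and Cd8b1 (5.23). CXCL10 tumour 1 had the lowest Cd8a of all 8 tumours (6.66) and the lowest Cd8b1 of its group (4.74), but not the lowest CD3 mean.

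**Figure D3:**
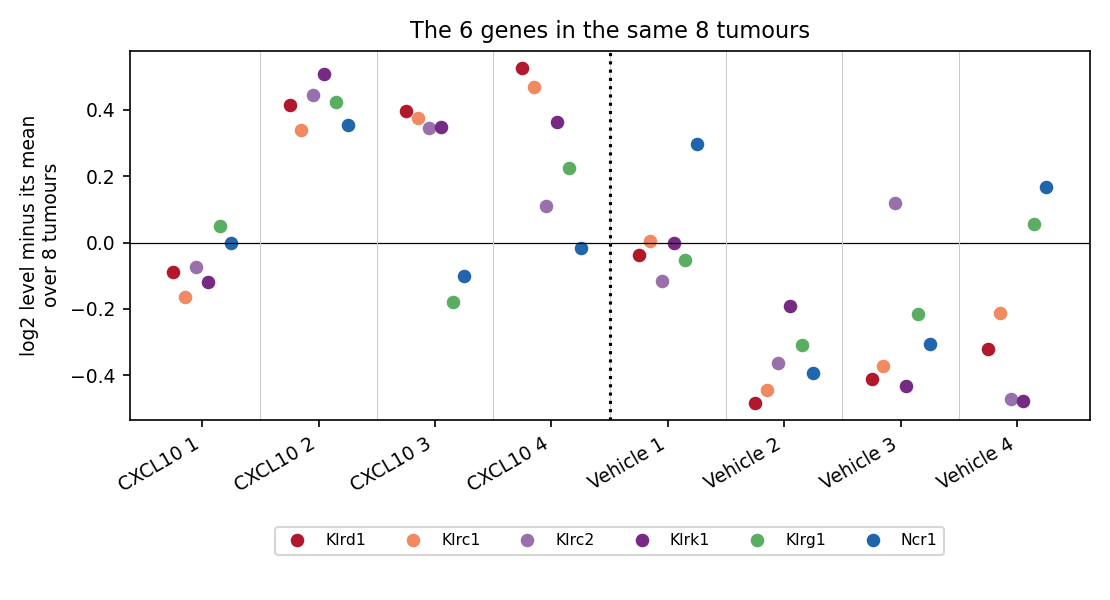
Level of each gene in each tumour as log2 level minus the gene's mean over the 8 tumours (vertical axis), with CXCL10 tumours left of the dotted line and vehicle tumours right of it. Klrd1 and Klrc1 lie close together in every tumour, while Klrg1 and Ncr1 separate from them in CXCL10 tumours 3 and 4.

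Klrd1 and Klrc1, whose proteins form 1 receptor, had closely similar levels over the tumours once each gene's mean was taken off. Likeness was measured as the mean absolute difference of 2 genes' log2 levels over the 8 tumours, after each gene's own mean was taken off, so that a smaller value is more alike. It was 0.058 between Klrd1 and Klrc1, and each was the nearest of the other 692 genes to the other. Klrk1 came next for both, at 0.10 from Klrd1 and 0.12 from Klrc1. Klrc2 also pairs with CD94, yet Klrd1 was the 31st nearest gene to Klrc2, at 0.17. Ncr1 was the 221st nearest gene to Klrd1, at 0.28. Beyond the 6 genes, Klrk1 was nearest to Amica1, an adhesion and co-stimulatory receptor of leucocytes (0.090), with Klrd1 second and Tnfrsf9, the co-stimulatory receptor 4-1BB, the third (0.11). Amica1 was also the third nearest gene to both Klrd1 and Klrc1, at 0.12 each. Klrc2 was nearest to Ulbp1 (0.11), then to the T cell kinase Txk and the BCL2 family gene Bid (0.12 each). Klrg1 was nearest to the kinase Fyn (0.058), Stat4 (0.073) and Dpp4 (0.091), and Ncr1 to Spn, which encodes the leucocyte sialoglycoprotein CD43 (0.087), to the cytotoxic cell protease gene Ctsw (0.10) and to Thy1 (0.11). These distances rest on the same 8 tumours and are descriptions. Genes with little spread of their own come out near to one another.

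The ratio of 2 genes within a tumour does not depend on the scaling between tumours. The log2 ratio of Klrc1 to Klrd1 was -1.75, -1.75, -1.70 and -1.73 in CXCL10 tumours 1 to 4, against -1.63, -1.63, -1.63 and -1.56 in vehicle tumours 1 to 4. It was lower in every CXCL10 tumour than in any vehicle tumour, by 0.12 on average, and its SD was 0.025 in CXCL10 and 0.034 in vehicle tumours (n = 4 each). Only 6 of the 239778 pairs of measured genes had a smaller SD of their ratio within the groups. That spread was below the 0.091 and 0.11 that counting error alone would give on average in CXCL10 and vehicle tumours. The difference of 0.12 was close in size to this counting error of a single tumour. Neither the narrow spread nor the separation of the groups can therefore be read as the true precision of the ratio. Since probes differ in yield, the size of such a ratio does not say which RNA was more abundant.

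The ratio of Klrd1 to Ncr1 also separated the groups. It was 1.57, 1.72, 2.16 and 2.21 in CXCL10 tumours 1 to 4, against 1.33, 1.57, 1.55 and 1.17 in vehicle tumours 1 to 4, a mean difference of 0.51. The lowest CXCL10 tumour and the highest vehicle tumour lay close together, both near 1.57. These were 2 of the 15 pairs among the 6 genes without overlap, or 13.3%, against 10.5% of all gene pairs, so such a separation was about as common among all pairs. The ratio of the inhibitory Klrc1 to the activating Klrc2 ranged from 0.13 to 0.60 in CXCL10 and from -0.25 to 0.50 in vehicle tumours, with a difference of 0.10 that was smaller than the SDs of 0.22 and 0.33. The ratio of Klrd1 to Klrk1 differed by 0.07, with SDs of 0.10 and 0.19 in CXCL10 and vehicle tumours. No p-value is given for these ratios, since the genes had been chosen with earlier results known.

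**Figure D4:**
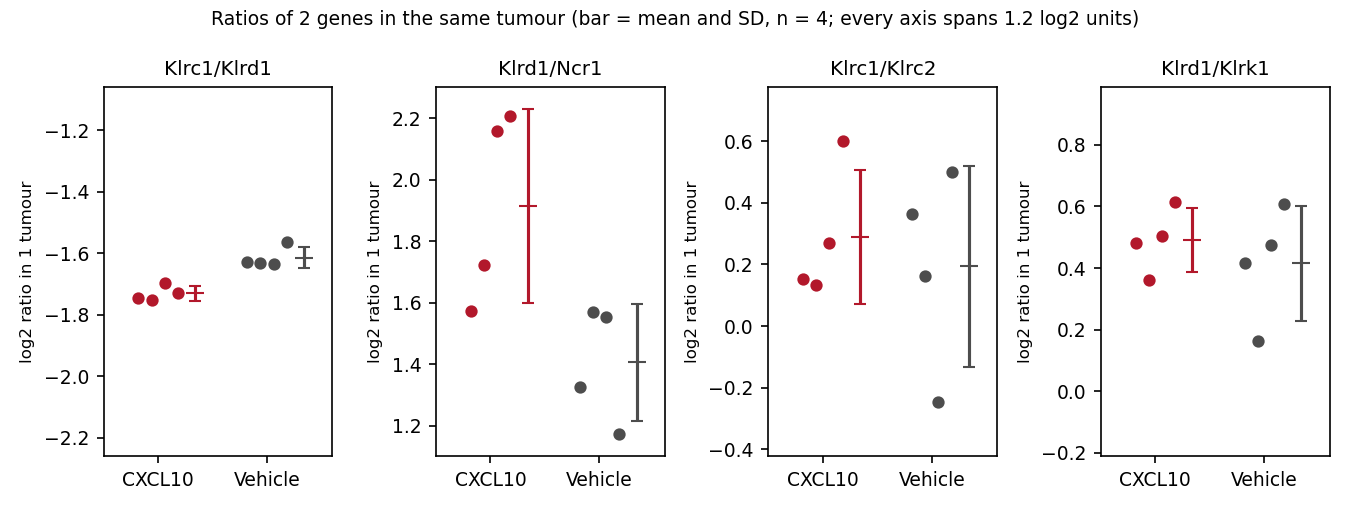
Log2 ratio of 2 genes within each tumour (vertical axes, all with the same span) for 4 of the 15 pairs, in CXCL10 (left) and vehicle tumours (right), with the mean and SD of 4 tumours as a bar. Klrc1/Klrd1 has a spread narrower than counting error alone would give and lies lower in all CXCL10 tumours. Klrd1/Ncr1 lies higher in all CXCL10 tumours, while Klrc1/Klrc2 and Klrd1/Klrk1 overlap.

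Markers of NK cells, T cells and epithelial cells had higher means after CXCL10, as the receptors did. Those of CD4 T cells, B cells and macrophages did so in part, and 69.6% of all genes had a higher mean. Of 9 measured NK cell markers (of 10 listed, with Ncr1 among them and several also expressed by T cells) 9 had a higher mean after CXCL10, with a median of 0.32 on the log2 scale. Their summed linear levels were 4278 to 5678 in CXCL10 and 3230 to 4855 in vehicle tumours. Klrb1c, which encodes NK1.1, stood at 0.29 (limma adjusted p = 0.340). Of 8 T cell markers 8 were higher, with a median of 0.26 and summed levels of 2124 to 2613 in CXCL10 and 1575 to 2170 in vehicle tumours. The summed level of the CD8 genes Cd8a and Cd8b1 was 128 to 284 in CXCL10 and 137 to 248 in vehicle tumours. Of 3 CD4 T cell genes 2 had a higher mean, with a median of 0.09 and Foxp3 at -0.12, and of 3 B cell genes 2, with a median of 0.07 and Cd79b at -0.10. Of 2 measured epithelial and carcinoma cell markers 2 were higher, with Epcam at 0.35 (limma adjusted p = 0.223) and Cdh1 at 0.04. Of 6 measured macrophage and monocyte markers 4 were higher, with a median of 0.09. Of these marker genes 0 passed limma's adjusted threshold. At an unadjusted p under 0.05 stood 1 NK cell, 4 T cell, 1 CD8 T cell and 1 epithelial marker. All of them were on the higher side, where 15.0% of all genes had such a p. No defining marker was at 0. Ptprc was 2100 to 3154 in CXCL10 and 1804 to 2642 in vehicle tumours on the linear scale.

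Set against a reference gene within each tumour, the differences depended on the reference. Relative to Ptprc, the log2 difference was 0.30 for Klrd1, 0.23 for Klrk1, 0.19 for Klrc1 and 0.09 for Klrc2, with limma adjusted p from 0.468 to 0.807. Relative to the mean of the CD3 chains Cd3d, Cd3e and Cd3g it was 0.26 for Klrd1, 0.18 for Klrk1, 0.14 for Klrc1 and 0.05 for Klrc2. Klrg1 and Ncr1 turned to the lower side, at -0.06 and -0.21 relative to Ptprc and at -0.11 and -0.25 relative to the CD3 chains, and neither passed. On both scales Klrd1 was the most positive and Ncr1 the most negative of the 6, and the size of the Ncr1 difference was second to that of Klrd1 relative to the CD3 chains. Relative to Cd8a, as a ratio within each tumour with no test, the log2 difference was 0.45 for Klrd1, 0.37 for Klrk1, 0.33 for Klrc1, 0.24 for Klrc2, 0.08 for Klrg1 and -0.06 for Ncr1. Relative to Cd8b1, whose own difference was 0.59 at low levels, it was 0.03 for Klrd1, -0.04 for Klrk1, -0.08 for Klrc1, -0.18 for Klrc2, -0.33 for Klrg1 and -0.48 for Ncr1. The groups overlapped in each of these 12 ratios.

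With median-of-ratios scaling, centring on the panel median and quantile normalization, the median difference of all genes became 0.02, 0.05 and 0.01, in place of 0.13. The difference of Klrd1 was then 0.50 to 0.55, of Klrk1 0.45 to 0.47, of Klrc1 0.40 to 0.43, of Klrc2 0.31 to 0.33, of Klrg1 0.11 to 0.18 and of Ncr1 0.01 to 0.04. All 6 remained on the higher side under these 3 scalings, and 0 of them passed at a limma adjusted p under 0.05. With panel median centring 1 of the 6 had all CXCL10 tumours above all vehicle tumours, against 5.19% of all genes.

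**Figure D5:**
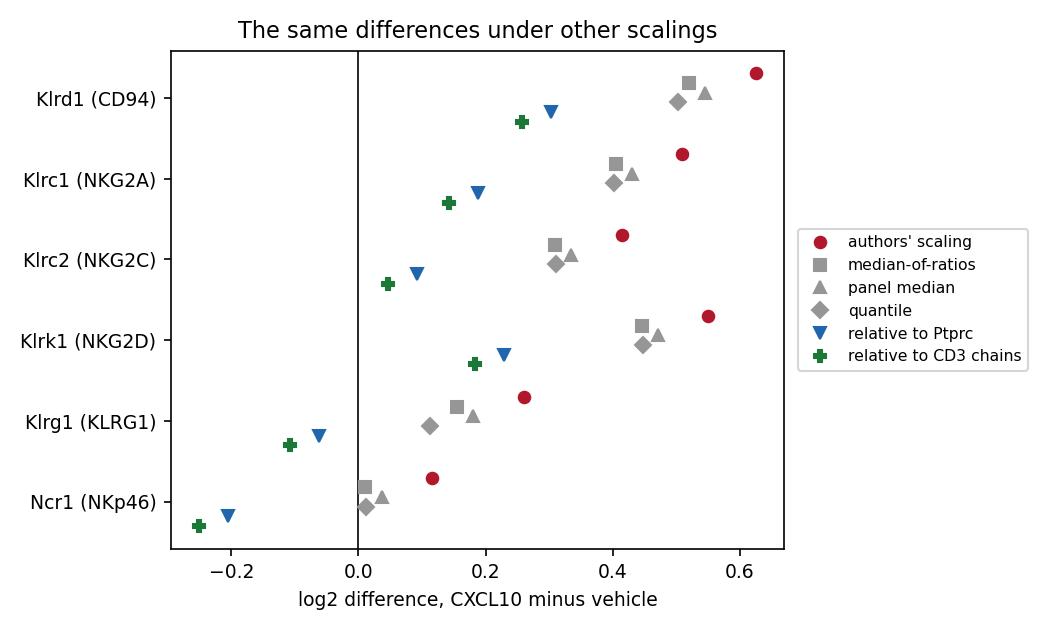
Log2 difference, CXCL10 minus vehicle (horizontal axis), for each gene on the authors' scaling, under 3 scalings over the whole panel (grey) and relative to Ptprc or to the CD3 chains in the same tumour. The order of the genes is much the same throughout, and Klrg1 and Ncr1 lie below 0 relative to Ptprc and to the CD3 chains.

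Ligands of these receptors were measured for 4 of 15 listed symbols. All 4 had higher means, against 69.6% of all genes, with a median log2 difference of 0.26. H2-T23, which encodes the Qa-1 molecule read by CD94 with NKG2A or NKG2C, stood at 12.61, 12.78, 12.76 and 13.20 in CXCL10 tumours 1 to 4, against 12.75, 12.60, 12.19 and 12.53 in vehicle tumours 1 to 4. The groups overlapped through vehicle tumour 1, and the difference was 0.32 (limma adjusted p = 0.325). Ulbp1, the NKG2D ligand MULT1, differed by 0.31 (limma adjusted p = 0.294), with 6.05, 6.44, 6.51 and 6.21 in CXCL10 tumours 1 to 4, against 6.23, 5.94, 6.07 and 5.74 in vehicle tumours 1 to 4. H60a, another NKG2D ligand, stood at 0.21 with at most 46 counts in any tumour. Probe background was not assessed, so whether these counts reflect H60a RNA was not tested, although the gene is part of the 4 and of their median. Cdh1, the E-cadherin of epithelial cells that KLRG1 binds, was level at 12.21 after CXCL10 and 12.17 in vehicle tumours. Raet1, the RAE-1 probe, was added after its values were seen and differed by 0.08 (limma adjusted p = 0.831). Of these ligands 0 passed the test or reached an unadjusted p under 0.05.

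Adaptor chains were measured for 3 of 4 listed genes, all but Tyrobp, and 0 passed. Hcst, which encodes the NKG2D adaptor DAP10, stood at 7.41, 8.02, 7.51 and 7.82 in CXCL10 tumours 1 to 4, against 7.33, 7.47, 6.96 and 7.67 in vehicle tumours 1 to 4. The groups overlapped, and the difference was 0.33 (limma adjusted p = 0.347). Cd247 and Fcer1g, chains through which NKp46 signals, differed by 0.21 and -0.05. Fcer1g is also made by myeloid cells and mast cells.

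Of 10 measured signalling genes 9 had higher means, against 69.6% of all genes, with a median of 0.18, and 0 passed over all genes. Sh2d1a, the adaptor SAP of T cells and NK cells (0.43, limma adjusted p = 0.143), and the T cell and NK cell kinase Zap70 (0.37, limma adjusted p = 0.195) stood above all vehicle tumours in each CXCL10 tumour and were the 2 with an unadjusted p under 0.05. Of all genes 7.79% stood above in that way and 15.0% had such a p on the higher side. Syk, a related kinase also abundant in myeloid and B cells, stood on the lower side at -0.24 (limma adjusted p = 0.330). Lck, a kinase of T cell receptor signalling, stood at 0.24 (limma adjusted p = 0.386). Inpp5d, the phosphatase SHIP-1 that inhibitory receptors such as KLRG1 recruit, was at 0.04.

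The other killer cell lectin-like receptors had higher means in 10 of 10 measured genes, against 69.6% of all genes, with a median of 0.19. Of the 10, 0 passed or had an unadjusted p under 0.05. Klra5, Klra20 and Klra21 had at most 41, 35 and 33 counts in any tumour, and probe background was not assessed. Whether such low counts reflect receptor RNA was not tested, although these genes are part of the 10. Klra2 stood at 0.38, Klra6 at 0.33, Klra7 at 0.32 and Klrb1c at 0.29, with limma adjusted p from 0.297 to 0.340. These receptors are inhibitory or activating Ly49 and NKR-P1 molecules.

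Cytokine receptors and transcription factors of NK and effector T cells had higher means in 16 of 17 measured genes, with a median of 0.19. The share over all genes was 69.6%, with a median of 0.13. Il18r1, a chain of the interleukin-18 receptor, passed at 0.59 (limma adjusted p = 0.0462), a call that held in 2 of 19 alternatives and in 0 of the 8 that left out 1 tumour (adjusted p 0.0454 to 0.474 over the 19). It was the only 1 of the 17 to do so, while 6 of the 17 had an unadjusted p under 0.05 on the higher side, against 15.0% of all genes. Il7r stood at 0.46, Il15ra at 0.54, and Il18rap, the partner chain of Il18r1, at 0.53, with limma adjusted p from 0.167 to 0.182. Bcl6, the 1 gene of the list with a lower mean, stood at -0.10 (limma adjusted p = 0.683). Il2rb, which carries interleukin-15 signals in NK cells, stood at 0.48. Eomes and Tbx21, transcription factors of NK and effector CD8 T cells, stood at 0.39 and 0.18 (limma adjusted p = 0.306 and 0.572).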

How the data were processed

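RNA of whole tumours was read with a targeted panel of 782 probes, of which 748 are endogenous, 20 housekeeping, 6 positive controls and 8 negative controls, per the file headers. In the deposited annotation 55 endogenous probes carry a pruning flag, and 6 housekeeping genes are marked as used for normalization. The deposited values are log2 normalized counts of 693 genes, in columns named by sample. The sources used here name no instrument or software. Another 16 value columns, headed by lanes, could not be tied to a sample by name and were left out with their negative controls, so probe background was not assessed. Taken out of log2, 100% of values in each tumour were whole multiples of 1 step per tumour (tolerance 0.02 counts). The counts so recovered gave the authors' deposited coefficient of variation in percent for 693 of 693 genes within 0.02 points. Counting errors assume Poisson counts and cover counting error only.

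Groups came from the titles. The test was limma's moderated test (version 3.58.1, R version 4.3.3) with group as the only term, Benjamini-Hochberg over 693 genes. The fit was tested on simulated data. No count model was run, and the recovered counts entered voom as the count-based alternative. The members and lists were chosen with earlier results of these data known. Named genes were the 6 members, all measured ligands and adaptors, up to 4 genes of smallest p per direction in other lists, and the 3 genes most like each member, except 1 gene that is not reported here. Inpp5d, Il2rb, Eomes, Tbx21, Prf1, Raet1, Foxp3, Cd79b, Epcam, Klra5, Klra20 and Klra21 lie outside this rule and were chosen after their values were seen. Promoter sequences are from RefSeq (GRCm38.p6), and genes were matched by symbol. The files name no build.

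Alternatives were a mean-variance trend, voom weights on recovered counts, a filter of 20 counts in 4 tumours, a pseudocount of 1, median-of-ratios, panel median and quantile scaling, values relative to Ptprc or the CD3 chains, the replicate number as a block, each tumour left out, and an exact permutation test.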

Additional observations from a re-analysis of the deposited data

How the results depend on the processing

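None of the 6 receptor genes passed an adjusted p under 0.05 in any setting run, and Klrd1, Klrc1, Klrk1 and Klrc2 kept a higher mean after CXCL10 in each of the 15 alternatives that recompute the difference. Klrg1 and Ncr1 did so in 13 of 15. The other 4 (the mean-variance trend, the count filter, the replicate block and the exact permutation test) cannot change it. Relative to Ptprc, Klrg1 and Ncr1 stood at -0.062 and -0.21, and relative to the CD3 chains at -0.11 and -0.25. Those scales take off the higher mean of their references after CXCL10. Ratios to Cd8a and Cd8b1 were not among the alternatives. Relative to Cd8b1, Klrk1, Klrc1 and Klrc2 turned to the lower side (-0.04, -0.08 and -0.18) and Klrd1 stood at 0.03. Relative to Cd8a, Klrd1, Klrk1, Klrc1 and Klrc2 stayed on the higher side. Leaving out 1 tumour gave 0.55 to 0.76 for Klrd1, 0.47 to 0.68 for Klrk1, 0.44 to 0.65 for Klrc1, 0.33 to 0.52 for Klrc2, 0.16 to 0.36 for Klrg1 and 0.0050 to 0.23 for Ncr1. Adjusted p over all settings ran from 0.0732 to 0.468 for Klrd1 and from 0.311 to 0.989 for Ncr1.

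The count of genes called by limma over the panel was 2 on the authors' scaling. It was 0 with a mean-variance trend, voom weights, median-of-ratios scaling, panel median centring or values relative to Ptprc, 1 with quantile normalization and 42 relative to the CD3 chains. With 1 tumour left out it ran from 0 to 5, with 5 without vehicle tumour 2 and 0 without any 1 of the other tumours. In the 13 limma settings with 0 calls, 82 to 156 genes had an unadjusted p under 0.05. Of genes with an unadjusted p under 0.05, 104 of 132 were higher on the authors' scaling, against 61 of 121 with median-of-ratios scaling, 76 of 126 with panel median centring, 56 of 120 with quantile normalization, 10 of 123 relative to Ptprc and 1 of 192 relative to the CD3 chains. The exact permutation test over the panel gave a lowest adjusted p of 0.264, since 4 tumours a group allow no smaller unadjusted p than 0.0286. Il18r1 kept its call only with the count filter, which removed 0 genes, and the pseudocount. The replicate block called 0 genes and gave Klrd1 an adjusted p of 0.209. The deviations of tumours of the same number had correlations of 0.25, -0.32, 0.23 and -0.26 for numbers 1 to 4. CXCL10 tumour 1 alone correlated best with its own number. These 4 values cannot show whether tumours of the same number share a batch, which was not tested. The filter on counts removed 0 genes. Klrg1, with at most 100 counts a tumour, is the gene whose precision counting limits most.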

Other observations

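Effector genes of cytotoxic lymphocytes had higher means after CXCL10 in 11 of 13 measured genes, against 69.6% of all genes, with a median log2 difference of 0.23. Of the 13, 0 passed limma's test over all genes. An unadjusted p under 0.05 on the higher side was found for 4, against 15.0% of all genes. Fasl, the death ligand, stood at 0.33 (limma adjusted p = 0.190) and all 4 CXCL10 tumours lay above all 4 vehicle tumours, as in 7.79% of all genes. Gzmk, a granzyme gene of memory-like CD8 T cells, stood at 0.90, Ifng at 0.52 and the death ligand gene Tnfsf10 at 0.52, with limma adjusted p from 0.208 to 0.218. Prf1, which encodes perforin, stood at 0.04, and the chemokine genes Ccl3 and Ccl4 at -0.09 and -0.13, with limma adjusted p from 0.839 to 0.944. Ctsw, the gene second nearest to Ncr1 in its levels over the 8 tumours, stood at 0.23 (limma adjusted p = 0.388).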
